A study of Mus musculus with 6 samples.

Results

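Core spliceosome genes encode the proteins of the machinery that cuts introns out of messenger RNA precursors. The set was 41 genes for proteins of the small nuclear ribonucleoprotein particles (snRNPs), the LSm ring, the SF3 complexes and the PRPF factors, taken by gene symbol. A member was measured where the platform annotation gives a probe set that symbol alone, which held for 37 genes and 86 probe sets of 18193 genes and 45037 probe sets in all. The other 4 (Lsm5, Snrpa, Snrpd1 and Snrpd2) have only probe sets whose annotation adds another gene, and they were not analysed here. Of the 37 genes, 36 had a probe set with A above 5, where A is the mean log2 intensity over all arrays and a value above 5 marks a probe set as expressed. Ddx23, a helicase that acts when the tri-snRNP joins, had 2 probe sets, with A of 2.35 and 2.25, close to the lowest value on the arrays.

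The arrays came from neurospheres, floating colonies of neural stem and progenitor cells, grown for 7 days from cells of the subventricular zone, the germinal layer along the lateral ventricles, of female mice 84 days old. There were 3 arrays from Ts1Cje mice on the C57BL/6 background and 3 from disomic C57BL/6 littermates, all on Affymetrix mouse genome expression arrays and with no treatment named. Ts1Cje mice carry the part of chromosome 16 distal to Sod1 in an additional copy, joined to the distal end of chromosome 12. The translocation arose while Sod1 was being targeted, and the translocated copy of Sod1 is not functional. None of the 37 measured members lies in the trisomic segment, so each has its usual number of copies in both groups. The genotype label of each array was borne out by the 80 expressed trisomic probe sets, whose mean deviation was 0.26 on every Ts1Cje array and lay between -0.30 and -0.22 on the disomic arrays.

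Splicing proceeds by the ordered assembly of snRNPs on each intron. The U1 snRNP binds the start of the intron, and the U2 snRNP, led there by the U2AF dimer, binds the branch point near its end. The U4/U6.U5 tri-snRNP then joins, U4 is unwound from U6, and the PRP19 complex helps to build the active site before helicases release the spliced RNA and take the machinery apart. The snRNPs share a ring of Sm proteins, and U6 carries the related LSm ring. These genes are used in every cell, and mutations in several of them cause disorders of brain, face or retina in humans.

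Most core spliceosome genes had slightly lower signal in Ts1Cje than in disomic neurospheres, and none differed by as much as 1.5-fold. M, the difference in mean log2 intensity (Ts1Cje less disomic), was below 0 for 27 of the 36 expressed members (75%), each represented by its brightest probe set, against 46.1% of the 8947 expressed genes. The median M was -0.13, a fold change of 0.914, and the middle part of the distribution ran from -0.19 to -0.02, where all expressed genes had a median of 0.02 with quartiles of -0.12 and 0.15. Single members ran from M = -0.36 to 0.32, against 0.58 on the log2 scale for 1.5-fold, and 28 of the 36 lay within 0.25 of 0. Expressed genes with A between the quartiles of the members (9.51 and 10.82) numbered 1506, with M below 0 in 49.1% and a median close to 0 (0.0044).

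**Figure D1:**
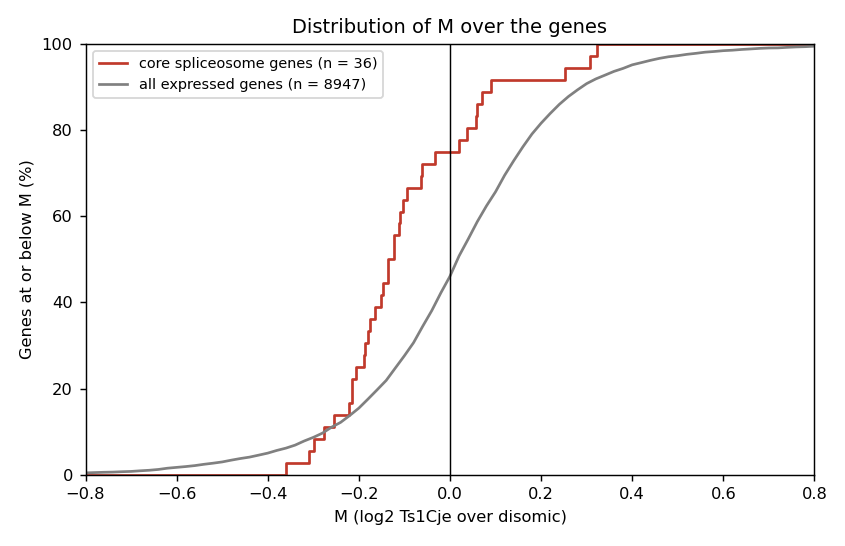
Percentage of genes at or below each value of M (log2 Ts1Cje over disomic) for the 36 expressed core spliceosome genes and for all 8947 expressed genes, each by its brightest probe set. The curve of the members stands left of that of all genes over the middle of the range, with 75% against 46.1% below 0, but does not reach further out on the low side.

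No member passed an adjusted p of 0.05 in limma, where 0.0112% of expressed genes did, and the adjusted p was 1 for each. Before adjustment 4 members had a p under 0.05, all of them with lower signal in Ts1Cje (2.87% of expressed genes did so with lower and 3.73% with higher signal). A moderated t of 4, the limit that the study used for its lists, was passed downwards by 3 members (8.33%), against 0.693% of expressed genes, and upwards by none, against 1.13%. All 3 Ts1Cje arrays were below all 3 disomic arrays for 5 members (13.9%), against 5.16% of expressed genes, and above them for none, against 6.12%. With any array left out, which makes it easier for groups to lie apart, these counts were 6 to 13 and 0 to 3. The shares of all expressed genes were not counted with an array left out. The 5.16% and 6.12% are therefore no background for these ranges. The members were read on the same arrays, so these counts are not over independent genes. The median standard error of M was 0.12, and the 95% confidence interval of 26 members lay wholly within a change of 1.5-fold in either direction. It reached a fall of 1.5-fold for 6 members and a rise of that size for 4, so changes of that size cannot be set aside for those genes.

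**Figure D2:**
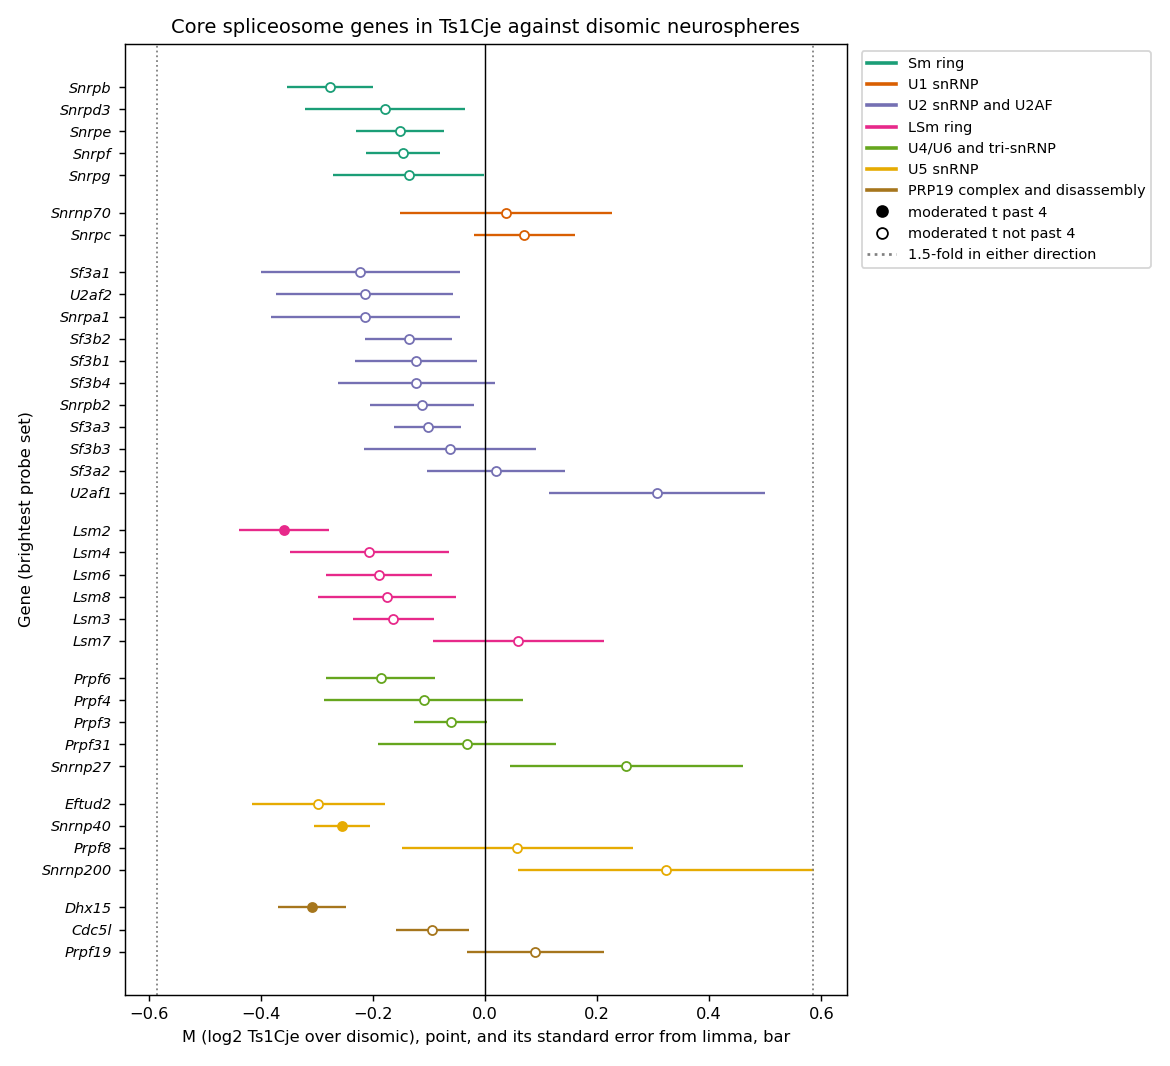
M (log2 Ts1Cje over disomic) of the 36 expressed core spliceosome genes with its standard error from limma, 3 arrays per genotype, grouped by role, with filled points for a moderated t past 4 and dotted lines at 1.5-fold. Lsm2, Snrnp40 and Dhx15 are the filled points, every Sm gene lies left of 0, and U2af1, Snrnp27 and Snrnp200 lie furthest to the right.

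Lsm2, Dhx15 and Snrnp40 were the members with a moderated t below -4. Lsm2 is a subunit of the LSm ring that binds the end of U6 RNA and, in another ring, takes part in the decay of messenger RNA. Its log2 intensity was 7.57, 7.30 and 7.50 on the Ts1Cje arrays, against 7.85, 7.78 and 7.81 on the disomic arrays. The groups did not overlap, and the disomic arrays were close together while Ts1Cje replicate 2 was the lowest. Its M was -0.36 (standard error 0.08, moderated t = -4.49, fold change 0.780), the lowest of the 36 members.

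Dhx15, the helicase that takes the spliceosome apart after the intron has been cut out, had a log2 intensity of 13.29, 13.16 and 13.09 on the Ts1Cje arrays and of 13.44, 13.50 and 13.53 on the disomic arrays. Every Ts1Cje array was below every disomic one, by a difference in means of M = -0.31 (standard error 0.06, moderated t = -5.13). Its other probe set had M = -0.17 with a moderated t of -1.81, also with no overlap. Snrnp40, a WD-repeat protein of the U5 snRNP, had 10.60, 10.54 and 10.48 on the Ts1Cje arrays and 10.72, 10.85 and 10.83 on the disomic arrays. Both groups were tight and did not overlap, with M = -0.26 (standard error 0.05, moderated t = -5.16), and its dimmer probe set had a like M of -0.24 with a wider error (moderated t = -0.72).
With arrays left out in turn these calls were not stable. The moderated t of Snrnp40 was -3.97 without disomic replicate 3. That of Dhx15 was -3.94 without Ts1Cje replicate 2, -3.95 without disomic replicate 2 and -3.95 without disomic replicate 3. That of Lsm2 missed 4 without Ts1Cje replicate 3 (-3.87) and without disomic replicate 1 (-3.42), 2 (-3.75) or 3 (-3.55). M kept its sign each time and ranged from -0.42 to -0.28 for Lsm2, -0.36 to -0.26 for Dhx15 and -0.29 to -0.23 for Snrnp40. Each such fit also has fewer arrays. The number of members with a moderated t below -4 was 1 without disomic replicate 2 (Snrnp40) and 1 without disomic replicate 3, which was Snrpb (moderated t = -5.10) and none of these 3.

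**Figure D3:**
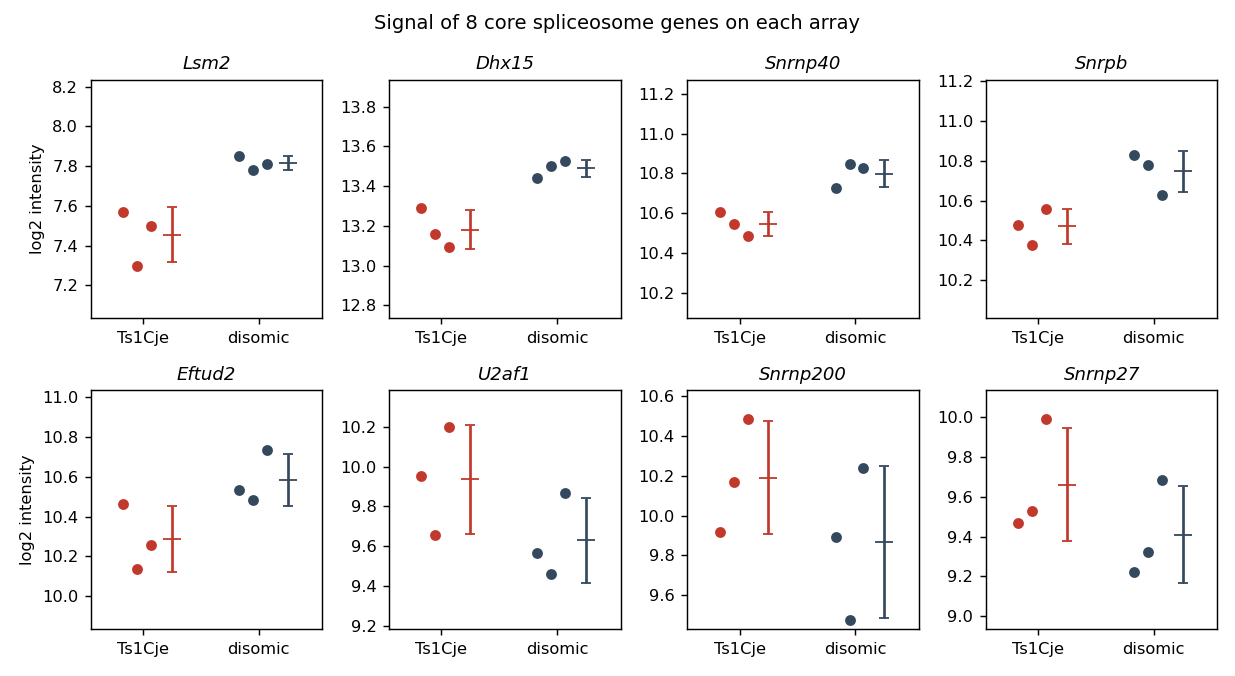
Log2 intensity of 8 core spliceosome genes on each array, with points for the 3 Ts1Cje and 3 disomic arrays and a bar for their mean and SD, every panel spanning the same range of 1.2 log2 units. For Lsm2, Dhx15, Snrnp40, Snrpb and Eftud2 the Ts1Cje points all lie below the disomic points, while for U2af1, Snrnp200 and Snrnp27 the groups overlap and replicate 3 is the highest array of both genotypes.

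Promoters are shown for a pair of the members with the lowest M (Lsm2 and Dhx15) and the pair with the highest (Snrnp200 and U2af1), as the 250 bases before the start of the gene in RefSeq on GRCm38.p6, with every match to a searched motif in capitals. For Snrnp40 no window was at hand.
Lsm2, chr17:34981604-34981853, plus strand: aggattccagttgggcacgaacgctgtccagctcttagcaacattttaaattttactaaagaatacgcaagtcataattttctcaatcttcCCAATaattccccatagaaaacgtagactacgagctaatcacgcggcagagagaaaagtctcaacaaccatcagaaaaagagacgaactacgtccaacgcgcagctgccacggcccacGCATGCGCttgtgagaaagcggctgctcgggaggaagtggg
Dhx15, chr5:52190547-52190796, minus strand: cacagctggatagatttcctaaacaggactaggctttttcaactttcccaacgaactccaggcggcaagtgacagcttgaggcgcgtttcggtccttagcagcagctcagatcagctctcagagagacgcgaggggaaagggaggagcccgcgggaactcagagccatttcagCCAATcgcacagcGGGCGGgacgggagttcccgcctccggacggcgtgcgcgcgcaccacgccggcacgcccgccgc
Snrnp200, chr2:127208136-127208385, plus strand: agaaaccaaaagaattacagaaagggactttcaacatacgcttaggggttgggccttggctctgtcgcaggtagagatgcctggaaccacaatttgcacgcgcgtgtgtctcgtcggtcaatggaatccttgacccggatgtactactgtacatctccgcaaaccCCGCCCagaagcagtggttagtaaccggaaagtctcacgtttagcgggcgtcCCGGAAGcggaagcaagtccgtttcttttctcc
U2af1, chr17:31658765-31659014, minus strand: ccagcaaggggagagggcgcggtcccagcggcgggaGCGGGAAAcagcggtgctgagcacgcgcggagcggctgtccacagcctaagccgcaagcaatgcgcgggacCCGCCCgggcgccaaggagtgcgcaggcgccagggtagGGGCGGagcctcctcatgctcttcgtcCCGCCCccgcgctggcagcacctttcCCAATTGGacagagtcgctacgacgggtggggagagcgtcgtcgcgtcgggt
The motifs were searched on both strands: CCGGAAG (bound by ETS factors), GCATGCGC (NRF1), GGGCGG (SP and KLF factors), CCAAT (NF-Y), TATAAA (a core promoter box), AAGATGGC (YY1) and TTTCCCGC (E2F). In the window of U2af1 a forward and a reverse match of CCAAT overlap. Among the 30 measured members with a window, 1 per gene, CCGGAAG was found in 11 (36.7%), against 15.7% of the 7347 windows of genes expressed on these arrays and 7.05% of all 27025 windows. GCATGCGC was found in 10% of members and 5.35% of expressed genes, GGGCGG in 50% and 62.8%, CCAAT in 40% and 37%, and TATAAA in 3.33% and 5.66%. AAGATGGC was in none of the 30 and in 2.33% of the windows of expressed genes, and TTTCCCGC in 1 (3.33%), against 2.01%. Of the 4 promoters shown, that of Snrnp200 holds CCGGAAG and those of Lsm2, Dhx15 and U2af1 do not. A match of letters is a description and not a site of binding.

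The Sm proteins form the ring that is loaded on U1, U2, U4 and U5 RNA in the cytoplasm and is needed for the particles to return to the nucleus. All 5 measured Sm genes had M below 0, from -0.28 to -0.14, with a median of -0.15. Snrpb encodes the SmB proteins. Its log2 intensity was 10.48, 10.38 and 10.56 on the Ts1Cje arrays, against 10.83, 10.78 and 10.63 on the disomic arrays. The groups did not overlap, though Ts1Cje replicate 3 and disomic replicate 3 were close, and M was -0.28 (standard error 0.08, moderated t = -3.64). Its other probe set gave M = -0.30 with groups that overlapped. Snrpg, at the other end of the Sm genes, had 13.09, 13.04 and 13.29 on the Ts1Cje arrays and 13.06, 13.31 and 13.46 on the disomic arrays. These overlapped, with M = -0.14 (standard error 0.13), and a dimmer probe set of Snrpg had M = 0.17. Snrpd3, Snrpe and Snrpf had M = -0.18, -0.15 and -0.15, each with groups that overlapped. On the mean of the 5 Sm genes, the deviation of the Ts1Cje arrays was -0.07, -0.17 and -0.03 and that of the disomic arrays 0.00, 0.14 and 0.12, with no overlap.

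The LSm ring was similar in sign, with 5 of its 6 measured genes below 0 and a median M of -0.18. On the mean of these 6 genes the deviation of the Ts1Cje arrays was -0.10, -0.19 and 0.03. That of the disomic arrays was 0.12, -0.01 and 0.15, so here the groups overlapped. Beside Lsm2, the values of M were -0.21 for Lsm4, -0.19 for Lsm6, -0.18 for Lsm8 and -0.16 for Lsm3, all with groups that overlapped. Lsm6 was read by 4 expressed probe sets, all with M below 0, and the dimmest of them had a moderated t of -4.49 (M = -0.49, standard error 0.11), with 6.17, 6.29 and 6.12 on the Ts1Cje arrays and 6.86, 6.68 and 6.51 on the disomic arrays. That probe set was named after its values were seen. Lsm7 differed from the rest of the ring in sign. It had 8.52, 8.57 and 8.89 on the Ts1Cje arrays and 8.73, 8.38 and 8.69 on the disomic arrays, which are interleaved, and M = 0.06 (standard error 0.15).

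Genes of the U1 snRNP, which recognises the start of the intron, had M close to 0 on their brightest probe sets. Snrpc, the U1 protein that steadies this pairing, had a log2 intensity of 9.62, 9.58 and 9.83 on the Ts1Cje arrays and 9.71, 9.52 and 9.59 on the disomic arrays, with M = 0.07 (standard error 0.09). Snrnp70, the large U1 protein, had 9.67, 9.48 and 9.71 on the Ts1Cje arrays and 9.90, 9.26 and 9.58 on the disomic arrays. The disomic arrays alone spread wider than both groups differ, and M was 0.04 (standard error 0.19). A dimmer probe set of Snrnp70 had M = -0.19 with a standard error of 0.47, so the sign is not settled for this gene.

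The U2 snRNP and the U2AF dimer were the largest class, with 11 measured genes, of which 9 had M below 0 and none a moderated t past 4. Sf3a1, a subunit of the SF3A complex that helps U2 to bind the branch point, was the lowest of them. It had 6.91, 6.97 and 7.29 on the Ts1Cje arrays and 7.43, 6.99 and 7.42 on the disomic arrays, and M = -0.22 (standard error 0.18). Disomic replicate 2 lay among the Ts1Cje arrays. Sf3b1, the branch-point clamp of SF3B and a frequent site of mutation in blood cancers, had M = -0.12 on its brightest probe set, and its 4 expressed probe sets ranged from -0.17 to 0.24. Sf3b2 had 5 expressed probe sets, all with M between -0.22 and -0.11. Snrpa1 and Snrpb2, the paired proteins that bind a stem-loop of U2, had M = -0.21 and -0.11, and a dimmer probe set of Snrpb2 had 0.31. Sf3a2, Sf3a3, Sf3b3 and Sf3b4 lay between -0.12 and 0.02.

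The U2AF subunits had M of opposite sign, neither with an interval that left out 0. U2af1 binds the AG at the end of the intron. Its human counterpart lies on the chromosome that is trisomic in Down syndrome, whereas the mouse gene lies on chromosome 17 and is disomic in Ts1Cje mice. Its log2 intensity was 9.95, 9.65 and 10.20 on the Ts1Cje arrays, against 9.56, 9.46 and 9.87 on the disomic arrays. The lowest Ts1Cje array lay among the disomic arrays, and M was 0.31 (standard error 0.19, moderated t = 1.59), with a 95% confidence interval from -0.21 to 0.83 that holds both 0 and the log2 of 1.5. U2af2, its partner that binds the pyrimidine tract, had M = -0.21 (standard error 0.16). Each has a single probe set here.

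In the U4/U6 snRNP and the tri-snRNP, 4 of 5 genes had M below 0 and the median was -0.06. Prpf6, which bridges U5 and U4/U6, had 10.16, 10.36 and 10.20 on the Ts1Cje arrays and 10.58, 10.39 and 10.31 on the disomic arrays. Only Ts1Cje replicate 2 overlapped the disomic arrays, and M was -0.19 (standard error 0.10). Prpf3, Prpf4 and Prpf31, of the U4/U6 snRNP, had M = -0.06, -0.11 and -0.03. A probe set of Prpf4 just under the limit for expression (A of 4.84) had M = 0.47 (moderated t = 3.26). On it all Ts1Cje arrays were above all disomic arrays, so the sign is not settled for Prpf4. Mutations in Prpf3, Prpf6, Prpf8, Prpf31 and Snrnp200 are known from inherited retinal degeneration in humans. Snrnp27, a small tri-snRNP protein, had 9.47, 9.53 and 9.99 on the Ts1Cje arrays and 9.22, 9.32 and 9.69 on the disomic arrays. Replicate 3 was the highest of both groups, which overlapped, and M was 0.25 (standard error 0.21), with 0.18 on its other probe set.

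Genes of the U5 snRNP were split. Beside Snrnp40, Eftud2, the GTPase of the U5 snRNP, had 10.47, 10.13 and 10.26 on the Ts1Cje arrays and 10.53, 10.48 and 10.73 on the disomic arrays. The groups did not overlap, though Ts1Cje replicate 1 lay just below disomic replicate 2, and M was -0.30 (standard error 0.12, moderated t = -2.52). Its other expressed probe sets gave -0.37 and -0.01. Snrnp200, the helicase that unwinds U4 from U6, had 9.92, 10.17 and 10.49 on the Ts1Cje arrays and 9.89, 9.47 and 10.24 on the disomic arrays. These ranges overlap widely, and M = 0.32 had the largest standard error of all 36 members, 0.26. Prpf8, the scaffold at the centre of the active site, had M = 0.06 with a standard error of 0.21.
In the PRP19 class, Cdc5l had M = -0.09 (standard error 0.07). Prpf19, the ubiquitin ligase that gives the complex its name, had 12.83, 12.72 and 13.04 on the Ts1Cje arrays and 12.61, 12.88 and 12.84 on the disomic arrays, with M = 0.09 (standard error 0.12). Its 4 expressed probe sets ranged from -0.04 to 0.22. On the mean of the 3 genes of this class, with Dhx15, the deviation of the Ts1Cje arrays was -0.05, -0.10 and -0.01. That of the disomic arrays was 0.01, 0.06 and 0.09, so the groups did not overlap, as on the mean of the Sm genes. On the means of the U1, U2, U4/U6 and U5 classes they overlapped.

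Over all 68 expressed probe sets of the members, M was below 0 for 51 (75%), against 48.4% of expressed probe sets, and the median was again -0.13. A moderated t below -4 was reached by 4 of the 68 (5.88%), against 0.812% of expressed probe sets. All Ts1Cje arrays were below all disomic arrays for 10 (14.7%), against 5.21% of expressed probe sets. Of the 20 genes with several expressed probe sets, 14 had the same sign of M on each and 6 did not (Prpf19, Sf3a3, Sf3b1, Snrnp70, Snrpb2 and Snrpg). Among the brightest probe sets, 6 have names ending in s_at and 2 in x_at, which mark probes that match more than a single transcript or gene. Several Sm and LSm genes have many processed copies in the genome, and their values (Snrpb, Snrpe, Snrpg and Lsm6) are uncertain to that extent.

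**Figure D4:**
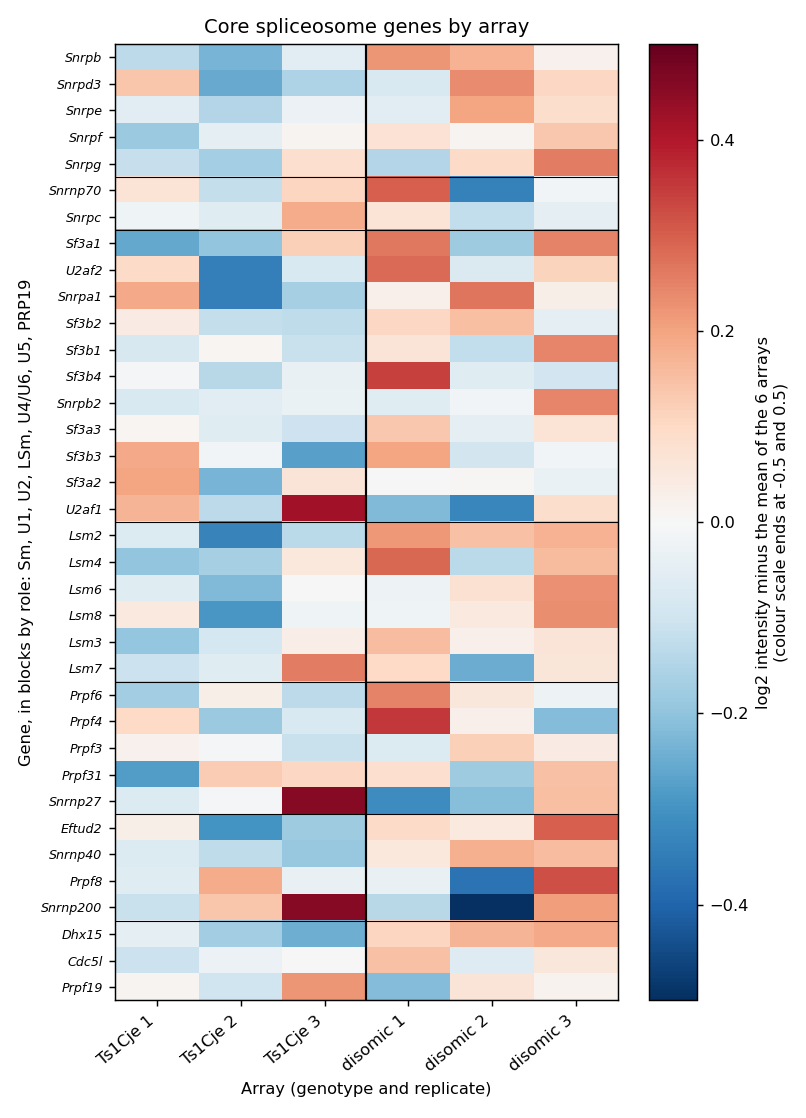
Log2 intensity of the 36 expressed core spliceosome genes on each array minus the mean of the 6 arrays, in blocks by role, Ts1Cje arrays on the left. Blue is more frequent on the Ts1Cje arrays, most of all on replicate 2, while U2af1, Snrnp27 and Snrnp200 are red on Ts1Cje replicate 3 and disomic replicate 2 is pale or blue for many genes.

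The lower signal was uneven across arrays. The mean deviation of the 36 members from their own means was -0.03, -0.12 and 0.01 on Ts1Cje replicates 1, 2 and 3 and 0.07, -0.03 and 0.10 on disomic replicates 1, 2 and 3. The groups overlapped, since disomic replicate 2 lay between the Ts1Cje arrays. Ts1Cje replicate 2 was the lowest of the 6 arrays for 12 of the 36 members and the highest for none. On Ts1Cje replicate 2, 20 members lay below every disomic array, on replicates 1 and 3 it was 14 each, and on replicate 3 another 7 lay above every disomic array. These counts for single arrays were not made over all expressed genes. Whether they exceed the general rate is therefore not known. The median SD of a member was 0.13 on the Ts1Cje and 0.14 on the disomic arrays (n = 3 each), about as large as the median M. The median M of the members stayed between -0.14 and -0.10 with any array left out, and the number below 0 between 23 and 30.

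Other measures differed between the groups as well. The difference in log2 signal between the 3' and the 5' control probe set of actin, which grows as RNA is degraded or labelled short, was 1.94, 1.87 and 2.26 on the Ts1Cje arrays and 1.53, 1.83 and 1.66 on the disomic arrays. That of Gapdh was 2.30, 2.44 and 2.29 on the Ts1Cje and 2.28, 2.09 and 2.16 on the disomic arrays, and the mean log2 signal of the 18S ribosomal RNA control was 11.97, 12.36 and 12.33 on the Ts1Cje and 10.24, 11.32 and 11.74 on the disomic arrays. All 3 were higher on every Ts1Cje array (two-sided exact permutation p = 0.1 each, the smallest that 3 against 3 arrays allow). Ts1Cje replicate 3, the highest array for U2af1, Snrnp200 and Snrnp27, also had the highest actin difference. The other controls ranked the arrays otherwise, with Ts1Cje replicate 2 highest for Gapdh and 18S and replicate 3 the lowest Ts1Cje array for Gapdh. Among the disomic arrays, replicate 3 was the highest for these genes, but replicate 2 had the highest actin difference. The part of RNA quality in the values of the members was not tested. Of the measured genes of the marker lists, neural stem cells and astrocytes had 7 of 8 genes expressed, oligodendrocytes 6 of 7, neuroblasts and neurons 2 of 7, vascular cells 1 of 8 and microglia and ependymal cells none of 8 and 6. The summed linear signal of each of the 6 lists, which rests mostly on its brightest genes, overlapped between the groups. Of single markers, Aqp4, a water channel of astrocytes, had the largest moderated t (M = 0.81, moderated t = 3.47). The other expressed genes of its list ran from M = -0.19 for Prom1 (moderated t = -1.49) to 0.14 for Slc1a3 (moderated t = 1.73). Of the 7 expressed genes of that list, 2 had M below 0. The part of Aqp4 in the values of the members was not tested. For neural stem cells and astrocytes the summed signal of the Ts1Cje arrays spanned 51376 to 53999, against 45256 to 56678 for the disomic arrays. In bulk RNA, fewer cells that express a gene and less RNA per cell cannot be told apart.

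Genes of cell division also had lower signal in Ts1Cje. Their list was drawn up with their lower signal in these arrays known. All 49 expressed genes of a list of replication and mitosis genes had M below 0, against 46.1% of expressed genes, with a median of -0.55. All Ts1Cje arrays were below all disomic arrays for 28 of the 49 (57.1%), against 5.16% of expressed genes. The mean deviation of the 49 genes was 0.05, -0.61 and -0.31 on the Ts1Cje arrays and 0.34, 0.16 and 0.36 on the disomic arrays. Ts1Cje replicate 2 was thus the lowest array of both lists and disomic replicate 2 the lowest disomic array of both. Ts1Cje replicate 3, second lowest for cell division, was the highest Ts1Cje array for the spliceosome. The part of proliferation in the values of the members was not tested.

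**Figure D5:**
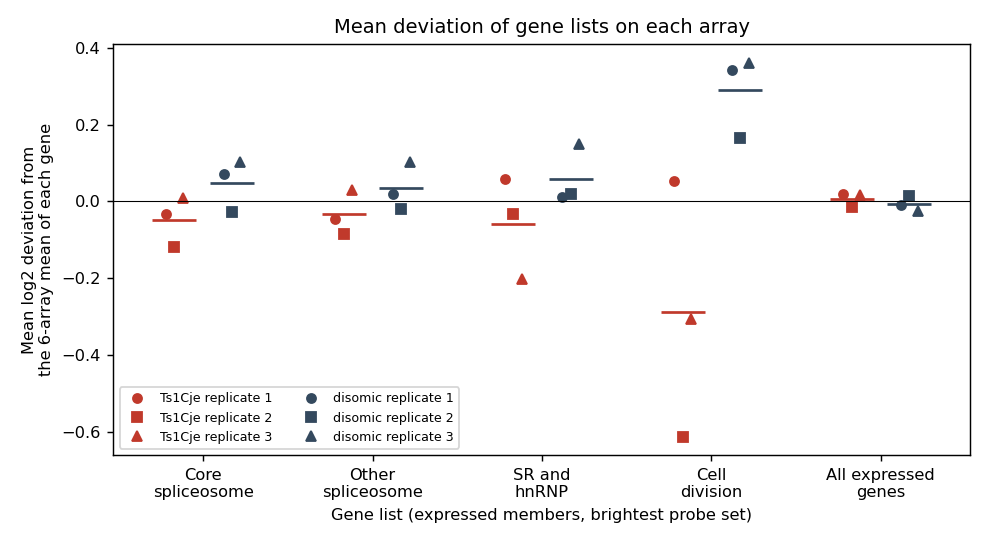
Mean log2 deviation of the expressed genes of 5 lists from their 6-array means on each array, with a symbol for each replicate and a line for the mean of 3 arrays. The Ts1Cje and disomic arrays overlap on the core spliceosome, the other spliceosome and the SR and hnRNP lists, and are apart on the cell division list.

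Genes of other spliceosome and related proteins outside the set gave a median M closer to 0. A list of 116 further genes had 97 expressed, of which 61 (62.9%) had M below 0, and the median was -0.05. It was -0.02 without disomic replicate 3 (51 of 97 below 0), -0.03 without Ts1Cje replicate 2 and -0.08 without disomic replicate 2. A moderated t below -4 was reached by 2 of the 97 (2.06%), against 0.693% of expressed genes, and above 4 by none, against 1.13%. All Ts1Cje arrays were below all disomic arrays for 10 (10.3%), against 5.16% of expressed genes and 13.9% of the members. They were above them for 1, where the share of expressed genes was 6.12%. Dhx16, the ATPase that readies the spliceosome for its first catalytic step, had 7.48, 7.61 and 7.59 on the Ts1Cje arrays and 8.05, 7.89 and 7.89 on the disomic arrays, with M = -0.38 (standard error 0.06, moderated t = -6.04). Rnps1, a protein of the exon junction complex, had 12.65, 12.73 and 12.68 on the Ts1Cje arrays and 12.90, 12.80 and 12.88 on the disomic arrays, and M = -0.17 (standard error 0.04, moderated t = -4.77). In both the groups were apart. Strap, a factor of snRNP assembly by the SMN complex, had M = -0.45 (standard error 0.12) and Isy1, of the PRP19-related proteins, M = -0.60 (standard error 0.19), with groups that did not overlap either. By class, the median M was -0.07 for 23 PRP19-related genes, -0.08 for 15 genes of snRNP assembly and -0.01 for 6 genes of the minor spliceosome, which removes a rare kind of intron. Among the other classes, 6 Sm and LSm genes outside the set had a median of 0.04 with 2 below 0, the single class with a median above 0. These genes (Lsm1, Lsm10, Lsm12, Lsm14a, Lsm14b and Naa38) were grouped by family and not as parts of the spliceosome. The remaining 5 classes had medians from -0.09 to -0.02.
Among regulators of splicing, 41 of 57 expressed SR and hnRNP genes (71.9%) had M below 0, with a median of -0.09 and no moderated t past 4. That median was -0.02 without Ts1Cje replicate 3 (32 of 57 below 0), -0.05 without disomic replicate 3 and -0.15 without Ts1Cje replicate 1. The largest moderated t belonged to Tardbp (M = -0.50, standard error 0.15), Sfpq (-0.32, 0.11), Srsf1 (-0.54, 0.20) and Srsf3 (-0.40, 0.15), each with groups that did not overlap. All Ts1Cje arrays were below all disomic arrays for 7 of the 57 (12.3%), against 5.16% of expressed genes, and above them for none, against 6.12%. On this list Ts1Cje replicate 3 was the lowest array, with a mean deviation of -0.20, where it was 0.01 on the members. The difference between the lists was not tested.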

How the data were processed

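The authors measured total RNA from 6 neurosphere cultures on Affymetrix mouse genome arrays and deposited log2 intensities per probe set, made with GCRMA (background correction by base composition, normalization between arrays and summary), whose version is not given in the sources used here. The deposited log2 values run from 2.23 to 15.89, and no column was left out. The number of arrays limits the precision.

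Genes were named by the platform annotation (34945 of 45037 probe sets carry a single symbol, besides 64 controls) and placed on GRCm38.p6. Genotype was fitted as a single factor to every non-control probe set in limma 3.58.1 (R 4.3.3), with two-sided moderated t and Benjamini-Hochberg adjustment over the whole table, and 0.336 prior degrees of freedom. Genes are represented by their brightest probe set, expressed with A above 5. Values on every array are given for members with a moderated t past 4 or groups that do not overlap, the highest and lowest M in each role and U2af1, and of other lists up to 4 genes with the largest moderated t. The members and lists were chosen with earlier results of these data known. The limma fit was tested on simulated data, with probe sets drawn independently of each other. The other steps were not tested in that way. Tables were made with Python 3.11.15 and pandas 2.3.3, figures with matplotlib 3.10.9. Alternatives tried were a block for replicate number, each array left out, cyclic loess, array weights, an intensity trend, other limits of A and other choices of probe set. The labels call the arrays biological replicates and the disomic mice littermate controls. The study describes pairs of Ts1Cje mice and disomic littermates, but the labels do not say which arrays pair. The main fit therefore leaves the pairing out.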

Additional observations from a re-analysis of the deposited data

How the results depend on the processing

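No alternative changed the sign of the median M of the members, and none put a member past the adjusted p in limma. With every expressed probe set counted, 51 of 68 had M below 0. The number of members with a moderated t below -4 ranged from 1 to 3, and with a moderated t above 4 from 0 to 0, over the arrays left out in turn. The median M ranged from -0.14 to -0.10 and the number below 0 from 23 to 30. For genes of other lists with a moderated t below -4 the range was 1 to 4 (other spliceosome), 0 to 4 (SR and hnRNP) and 1 to 24 (cell division, 24 without Ts1Cje replicate 1 and 1 without Ts1Cje replicate 3 or disomic replicate 1). For a moderated t above 4 on the SR and hnRNP list it was 0 to 1. The shares of all expressed genes with an array left out were not counted. The controls for RNA quality kept their direction, with a difference of 0.23 to 0.43 for actin, 0.12 to 0.22 for Gapdh and 0.69 to 1.44 for 18S.

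With the replicate number as a block, 2 members had a moderated t above 4 (U2af1 and Snrnp27) and 4 had a moderated t below -4 (U2af2 besides Lsm2, Dhx15 and Snrnp40). With array weights 4 were below -4 (Snrpb besides those 3). On the other lists the block gave 6 genes below -4 and 2 above 4 (other spliceosome), 2 below -4 (SR and hnRNP) and 22 below -4 (cell division). The shares of all expressed genes past these limits were not counted with the block or with array weights. Whether these counts exceed the general rate is therefore not known. Arrays with the same number did not deviate together (correlations of -0.17, -0.03 and 0.13), and Ts1Cje replicate 1 correlated best with disomic replicate 2 (0.40). These are correlations of deviations from the mean of only 3 arrays per group, so they cannot decide whether arrays are paired. Pairing was left out because the labels do not give it, and whether arrays with the same number share a litter is not known.

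Some members changed sign under some settings, and the cause was not tested. Most of these had M near 0, but Sf3b4 (M = -0.12) and Prpf4 (M = -0.11) lay near the median of the members (-0.13). With array weights, M was 0.030 for Prpf31 and -0.023 for Sf3a2. Leaving out arrays gave ranges of -0.054 to 0.13 for Lsm7, -0.13 to 0.10 for Prpf31, -0.24 to 0.040 for Prpf4, -0.11 to 0.23 for Prpf8, -0.075 to 0.14 for Sf3a2, -0.17 to 0.058 for Sf3b3, -0.20 to 0.016 for Sf3b4, -0.12 to 0.20 for Snrnp70 and -0.0058 to 0.12 for Snrpc.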
